A study of Mus musculus with 34 samples.

Results

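Treatment with NVS-HD1, which inhibits the class IIa histone deacetylases, was examined for its effect on the denervated gastrocnemius, a calf muscle, of female wild-type (WT) mice. The comparison used 17 of the 34 libraries of the series, chosen by group and not by any measured value: 10 denervated legs after NVS-HD1 (WT_NVS-HD1_DEN) and 7 denervated legs after vehicle (WT_VEH_DEN). At the age of 6 months the mice had the sciatic nerve of a single leg severed, and from that day they received 10 mg/kg NVS-HD1 or the methylcellulose and Tween vehicle by gavage 2 times a day for 2 weeks. Both groups were therefore denervated, WT and female, and they differed by treatment. They also differed, almost fully, by a number in the sample titles whose meaning the labels do not give. Of the 10 NVS-HD1 libraries 9 carry 26 or 27, which none of the 7 vehicle libraries compared does. The labels do not say whether the WT mice also received the tamoxifen used to induce the knockout. Nor do they say whether each library came from its own mouse, so p-values measure the spread between libraries. In the limma fit of rows this spread is that of all 34 libraries, not of the 17 alone. The remaining libraries were 8 innervated control legs from WT mice on vehicle (WT_VEH_CON) and 9 denervated legs from mice on vehicle that had lost an exon of Hdac4 in the whole body through a tamoxifen-inducible Cre at the ROSA26 locus (iRKO_VEH_DEN). They entered the fit for its estimate of spread and are used for levels set side by side.

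Class IIa histone deacetylases shuttle between nucleus and cytoplasm and act mainly as scaffolds that hold transcription factors of the MEF2 family and corepressor complexes at muscle genes. When a motor nerve is lost they accumulate in the muscle nuclei, and through repression of a further repressor they are known to favour expression of myogenin and, with it, of synaptic genes such as the acetylcholine receptor subunits and of ubiquitin ligases of atrophy. The comparison asks how much of the transcriptome of a denervated muscle such an inhibitor moves.

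The table gives abundance as TPM, a length-scaled share of each library that adds up to 1000000, for 23737 rows. Its gene symbols do not belong to the values: the rows labelled Acta1 and Ttn, skeletal actin and titin, were listed at 0 in every library, and that labelled Ckm, a creatine kinase of muscle, reached at most 13.4 TPM. Neither the tissue nor any gene could therefore be checked by markers, no gene is named, and no sequence is given. Rows are called instead by their abundance rank, rank 1 having the highest mean TPM over all 34 libraries. Tests covered the 13108 rows that reached 1 TPM or more in 7 or more of the 34 libraries. A row was called when its adjusted p in limma was under 0.05, and rose, fell, higher and lower refer to called rows. TPM keep no read depth, so the counting error of a value is unknown. In bulk muscle, fewer cells of a type and less RNA per cell cannot be told apart.

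Between the NVS-HD1 and vehicle libraries 5198 rows differed, 39.7% of those tested. With the title number in the fit 510 rows were called, 189 higher and 321 lower, and the median SE rose from 0.11 to 0.25. In that fit a single NVS-HD1 library, replicate 4, links the treatments. Without that library the treatment and the title number cannot be told apart in any row. Higher levels were found in 2420 rows (18.5%) and lower levels in 2778 (21.2%). Most changes were small. The median size of a called change was 0.41 on the log2(TPM + 1) scale, and the smallest was 0.11. Of the called rows, 754 (14.5%) changed by less than 0.25, 2548 (49.0%) by 0.25 to 0.5, 1469 (28.3%) by 0.5 to 1, 363 (6.98%) by 1 to 2 and 64 (1.23%) by more than 2. At least 2-fold rises were called in 211 rows (1.61% of rows tested) and at least 2-fold falls in 216 (1.65%), and no row with a 2-fold estimate missed the threshold. This even split depended on the scaling: 309 such rises and 176 falls were called when the 20 top rows were left out of it.

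**Figure D1:**
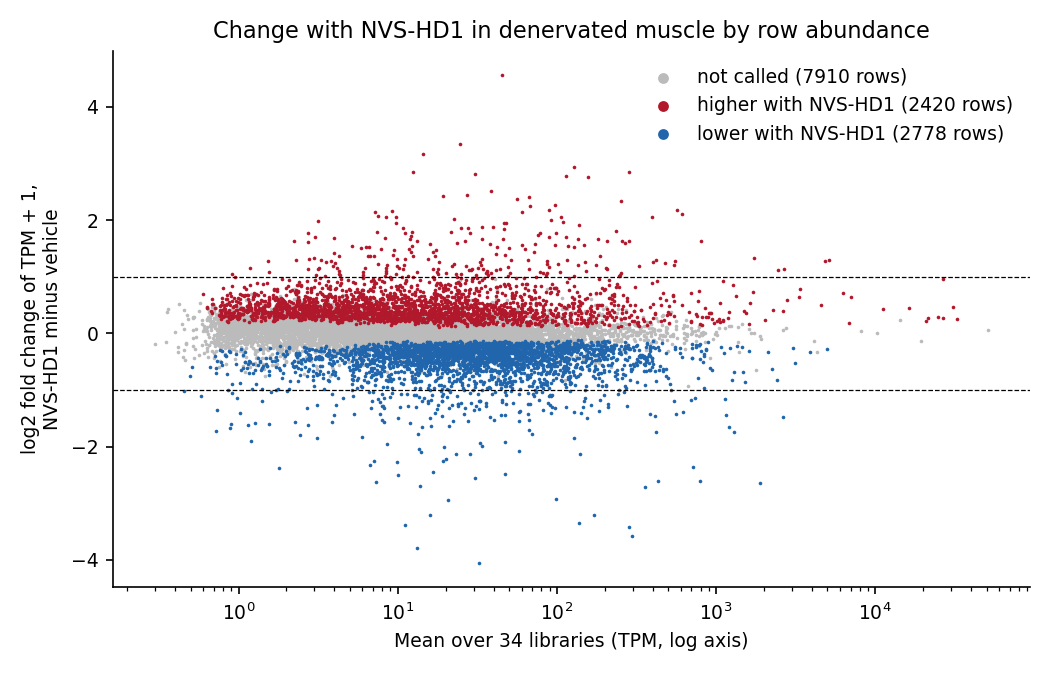
Each point is 1 of the 13108 rows tested, with its mean TPM over all 34 libraries on a log axis and its log2 fold change (NVS-HD1 minus vehicle, denervated WT legs) on the other axis. Dashed lines mark a 2-fold change: 211 called rows lie above the upper line and 216 below the lower one, and most called rows lie between them.

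Single libraries of the groups were fully separated in part of the rows. All but 1 of these rows were called, but separation and call use the same libraries, so neither backs the other. In 621 rows (4.74% of those tested) the lowest NVS-HD1 library lay above the highest vehicle library, and in 924 rows (7.05%) the highest NVS-HD1 library lay below the lowest vehicle library. Among the rows that changed at least 2-fold, 174 of the 211 rises and 179 of the 216 falls were separated in this way. For the 7910 rows that were not called, the 95% interval of the fold change lay within 1.5-fold either way in 6290 (79.5%) and within 2-fold in 7686 (97.2%), so that a 2-fold change of TPM + 1 was compatible with the data in few of them.

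The share of rows called grew with abundance. It was 19.1% of 560 rows with a mean under 1 TPM, 29.8% of 5239 rows of 1 to 10 TPM, 46.2% of 5999 rows of 10 to 100 TPM, 57.2% of 1222 rows of 100 to 1000 TPM and 71.6% of 88 rows of at least 1000 TPM. The spread between libraries fell over the same classes, with a median SE of the fold change of 0.14, 0.13, 0.096, 0.087 and 0.089, so the lower classes could be called only for larger changes. Typical sizes grew as well. The median absolute fold change was 0.20 in the lowest class, 0.22 in the second and the third, 0.26 in the fourth and 0.32 in the highest. The log2(TPM + 1) scale understates changes at low TPM. How far precision or size set the shares called was not tested.

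The direction of change differed between these classes. Of rows with 1 to 10 TPM, 1063 were higher and 497 lower with NVS-HD1. Of rows with 10 to 100 TPM, 991 were higher and 1778 lower, and of those with 100 to 1000 TPM, 247 and 452. Among the 88 rows of at least 1000 TPM, 40 were higher and 23 lower. These splits depended on how the libraries were scaled to each other. Median-of-ratios scaling kept the excess of each class, with 1160 higher and 573 lower at 1 to 10 TPM and 982 and 1930 at 10 to 100 TPM. Quantile normalization, which forces the same distribution on all libraries, gave 612 and 812, and 1270 and 1460. Scaling each library after removal of its 20 top rows moved the median fold change of all rows from 0.025 to 0.14 and gave 1869 and 336, and 1769 and 1193. An excess of rises in the class of at least 1000 TPM was present under all 4 scalings. Within title number 28, the set of 5 libraries described further on, 27 rows of 1 to 10 TPM were higher and 51 lower.

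**Figure D2:**
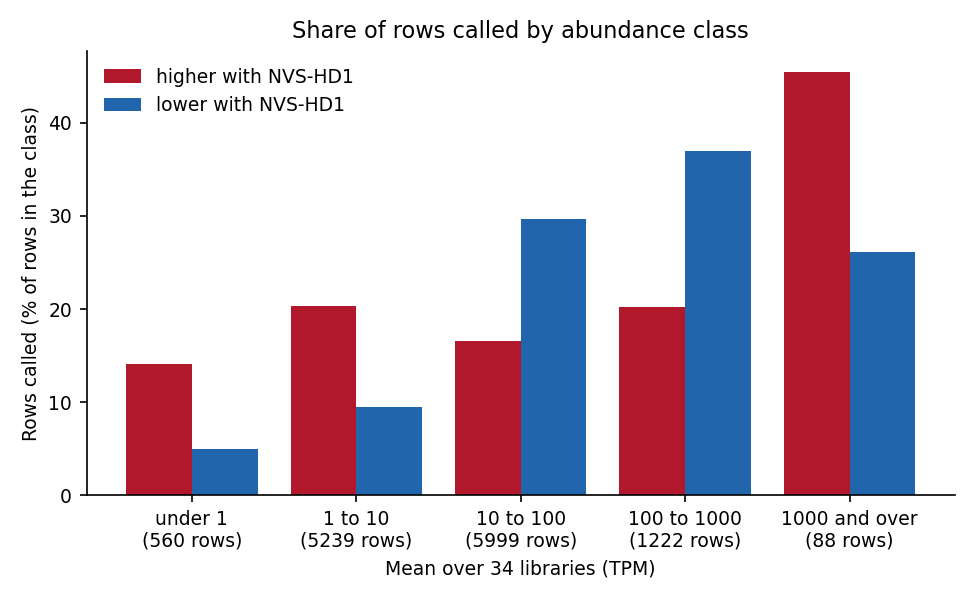
Bars show, for 5 classes of mean TPM over all 34 libraries, the percentage of rows called higher (red) or lower (blue) with NVS-HD1, from TPM as deposited. Rises outnumbered falls under 10 TPM and from 1000 TPM upward, and falls outnumbered rises between 10 and 1000 TPM, a split that other scalings altered.

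The calls of the rows that changed at least 2-fold as deposited were mostly kept under these scalings. Of these 427 rows, 427 were still called in the same direction with median-of-ratios scaling, 425 with quantile normalization and 426 when the 20 top rows were left out of the scaling. Of all 5198 called rows, 4840, 4087 and 4276 were called in the same direction, and 0, 1 and 0 in the opposite one.

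The 10 rows with the largest rises, among rows whose higher group averaged 10 TPM or more, had abundance ranks from 406 to 6657 and log2 fold changes between 2.52 and 4.56. In all 10 the libraries of the groups did not overlap. The largest rise was at rank 2750. This row had 0.448 to 7.55 TPM (median 1.56) in the 7 vehicle libraries and 33.99 to 129.1 TPM (median 57.9) in the 10 NVS-HD1 libraries. Its mean TPM was 31.0 times as high with NVS-HD1. The log2 fold change, taken on TPM + 1, was 4.56 ± 0.35 (SE; limma, adjusted p = 3.57e-12). The highest vehicle value, 7.55 TPM in replicate 5, stood apart from the other 6, which reached at most 2.02 TPM.

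The row at rank 406 was the most abundant of these rises. It had 19.2 to 93.1 TPM (median 41.7) with vehicle and 260.1 to 365.4 TPM (median 316.3) with NVS-HD1, a log2 fold change of 2.85 ± 0.18 (SE; limma, adjusted p = 9.42e-14). The vehicle libraries were spread over a nearly 5-fold range, whereas the NVS-HD1 libraries lay close together, with SDs of 0.67 and 0.16 on the log2 scale. At rank 1153 the vehicle libraries had 11.04 to 22.5 TPM (median 15.3) and the NVS-HD1 libraries 71.9 to 158.6 TPM (median 126.7), with the smallest p among rises (log2 fold change 2.78, SE 0.15, limma adjusted p = 2.11e-15). At rank 6657 the vehicle libraries had 0.385 to 1.02 TPM, about the 1 TPM used for detection, and the NVS-HD1 libraries 4.96 to 23.2 TPM (median 14.4).

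The other rises chosen for the smallest p were smaller in size. Rank 1119 had 39.0 to 48.4 TPM (median 43.7) with vehicle and 111.9 to 151.9 TPM (median 132.0) with NVS-HD1, and its mean was 2.97 times as high. Its log2 fold change was 1.55 (limma, adjusted p = 1.19e-14). Rank 705 had 52.9 to 83.2 TPM (median 63.8) with vehicle and 140.9 to 244.1 TPM (median 211.9) with NVS-HD1, a log2 fold change of 1.67 ± 0.10 (SE; limma, adjusted p = 3.07e-14). In both rows every NVS-HD1 library lay above every vehicle library.

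The 10 largest falls had ranks from 392 to 6996 and log2 fold changes between -4.06 and -2.93, and in 9 of them the groups did not overlap. The largest fall was at rank 3569, a row with 57.3 to 229.9 TPM (median 111.4) with vehicle and 4.49 to 11.6 TPM (median 5.56) with NVS-HD1. The vehicle mean TPM was 20.8 times the NVS-HD1 mean. The log2 fold change, taken on TPM + 1, was -4.06 (SE 0.46, limma adjusted p = 1.22e-08). The exception to the separation was the row at rank 6443, which had 18.4 to 79.5 TPM (median 55.3) with vehicle and 0.840 to 31.9 TPM (median 1.601) with NVS-HD1. Its value of 31.9 TPM was that of NVS-HD1 replicate 7, and the other 9 NVS-HD1 libraries reached at most 5.51 TPM.

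Falls included abundant rows. Rank 392 had 633.4 to 1406 TPM (median 997.6) with vehicle and 50.1 to 158.1 TPM (median 79.8) with NVS-HD1 (log2 fold change -3.57, SE 0.27, limma adjusted p = 3.57e-12). Rank 411 had 661.8 to 1626 TPM (median 1061) and 43.8 to 238.7 TPM (median 85.5), a fall with a larger SE (log2 fold change -3.42, SE 0.53, limma adjusted p = 3.68e-06). That SE also holds the spread of the other groups: the SD at rank 411 on the log2 scale was 1.99 in knockout legs, 0.78 with NVS-HD1 and 0.48 with vehicle. The groups were separate in both. Rank 752 had 426.3 to 715.4 TPM (median 643.4) with vehicle and 32.4 to 130.2 TPM (median 60.5) with NVS-HD1. The smallest p of all rows belonged to the row at rank 120, with 1516 to 3456 TPM (median 2379) under vehicle and 312.5 to 585.2 TPM (median 372.1) under NVS-HD1. Its log2 fold change was -2.61 ± 0.13 (SE; limma, adjusted p = 5.13e-16). The highest NVS-HD1 value of that row was that of replicate 4, and the other 9 lay at or below 424.5 TPM.

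**Figure D3:**
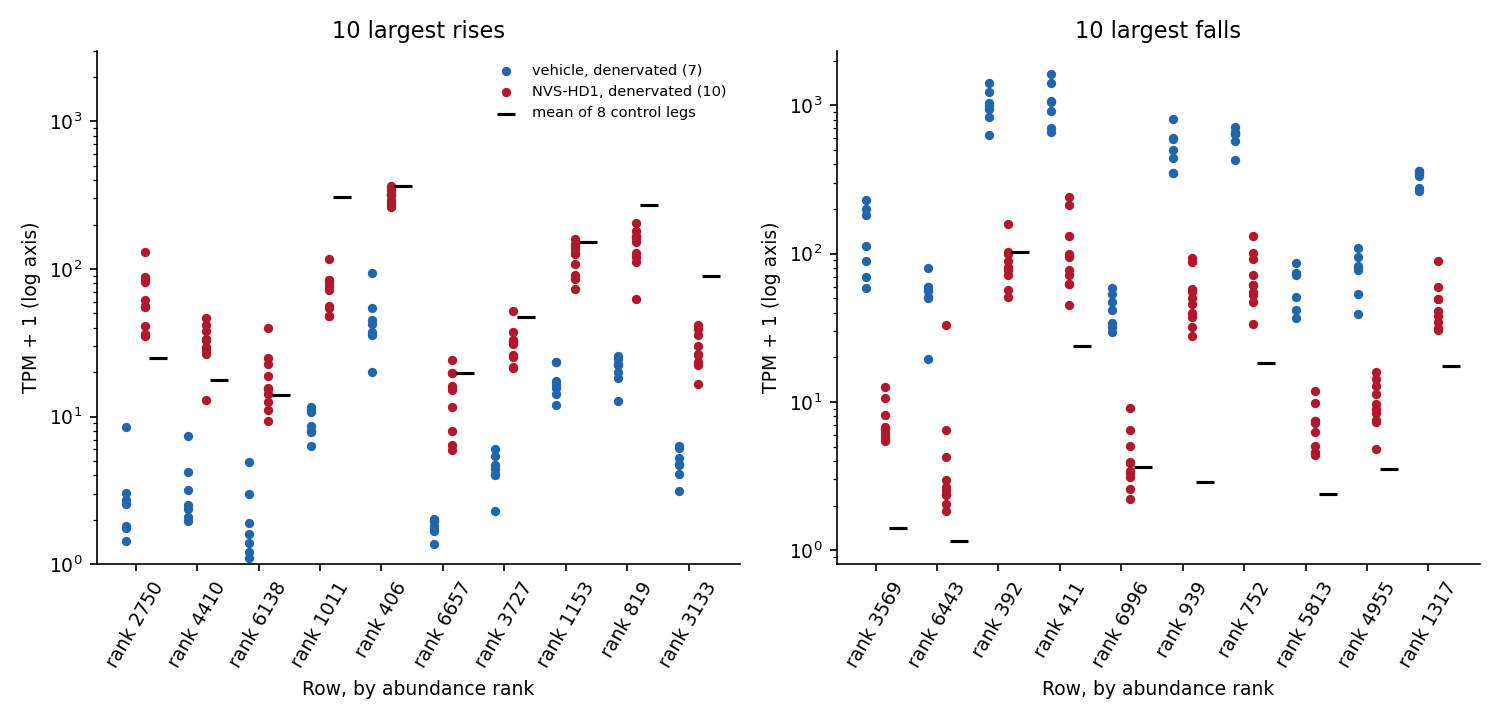
TPM + 1 on a log axis in single libraries for the 10 rows with the largest rises (left) and the 10 with the largest falls (right), with vehicle libraries in blue, NVS-HD1 libraries in red and the mean of the 8 control legs as a black bar. The groups are separate in all 10 rises and in 9 of the 10 falls, the overlap being 1 NVS-HD1 library of the row at rank 6443.

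The levels of these rows in the other groups are given beside their changes. All these comparisons share libraries with the one above, so their values are not independent of it. Title numbers were 20 (2 libraries), 28 (1) or 29 (5) in control legs and 25 (5), 26 (2) or 27 (2) in knockout legs. Neither 26 nor 27 occurred in control or WT vehicle legs. Against these legs, the levels of knockout legs and, but for 1 library, of NVS-HD1 legs cannot be told apart from the title number. In the 10 largest rises the mean of the denervated vehicle legs lay below that of the control legs in every row, and the NVS-HD1 mean lay above the control mean in 3. Rank 406 had 364.7 ± 23.2 TPM (SD, n = 8) in control legs, 46.1 ± 23.2 TPM (SD, n = 7) with denervation and vehicle, 309.8 ± 34.01 TPM (SD, n = 10) with denervation and NVS-HD1, and 370.2 ± 101.4 TPM (SD, n = 9) in denervated knockout legs. The log2 difference between NVS-HD1 and control was -0.24 in this row (limma, adjusted p = 0.255). In control legs rank 2750 had 23.9 ± 7.26 TPM (SD, n = 8), less than the 66.1 ± 29.7 TPM (SD, n = 10) with NVS-HD1 (log2 difference 1.36, limma adjusted p = 8.81e-04). In contrast, rank 3133 had 88.99 ± 11.99 TPM (SD, n = 8) there, more than the 27.5 ± 8.20 TPM (SD, n = 10) with NVS-HD1 (log2 difference -1.70, limma adjusted p = 9.31e-08).

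In the 10 largest falls the vehicle mean lay above the control mean in every row, and the NVS-HD1 mean lay above it in 9. The exception, rank 392, had 101.4 ± 6.01 TPM (SD, n = 8) in control legs, 1012 ± 252.1 TPM (SD, n = 7) with vehicle and 85.9 ± 30.1 TPM (SD, n = 10) with NVS-HD1. Against control its log2 difference with NVS-HD1 was -0.30 (limma, adjusted p = 0.349). Rank 3569 had 0.405 ± 0.163 TPM (SD, n = 8) in control legs and 6.44 ± 2.36 TPM (SD, n = 10) with NVS-HD1, a log2 difference of 2.36 (limma, adjusted p = 3.55e-05). Rank 411 had 22.8 ± 6.10 TPM (SD, n = 8) in control legs and 108.8 ± 66.1 TPM (SD, n = 10) with NVS-HD1 (log2 difference 2.04, limma adjusted p = 0.00113). One of the rows with the smallest p lay on the other side of control: the row at rank 1832 had 71.7 ± 6.93 TPM (SD, n = 8) in control legs, 142.4 ± 30.7 TPM (SD, n = 7) with vehicle and 40.6 ± 7.55 TPM (SD, n = 10) with NVS-HD1, the last below control by a log2 difference of -0.82 (limma, adjusted p = 2.01e-07).

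Few rows crossed the level of 1 TPM altogether. In 13 rows every vehicle library was under 1 TPM and every NVS-HD1 library at or above it. All 13 were called, and choosing rows by such a separation makes a call likely. Their means with NVS-HD1 were 1.47 to 4.10 TPM. In 11 of these rows all 8 control legs also had at least 1 TPM. The opposite pattern was found in 6 rows, all called, with vehicle means of 1.86 to 7.16 TPM, and in 5 of them all control legs were under 1 TPM. The change in these rows was therefore of a few TPM only.

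The most abundant rows took a larger share of the library with NVS-HD1. In the top 10 rows lay 19.8% to 26.8% of TPM (median 21.2%) of the vehicle libraries and 24.7% to 28.7% (median 27.1%) of the NVS-HD1 libraries. The mean difference was 4.71 ± 0.997 percentage points (SE; two-sided exact permutation test, adjusted p = 0.00154 over 6 library measures). The ranges overlapped through vehicle replicate 5, at 26.8%, since the other 6 vehicle libraries reached at most 23.0%. Leaving out single libraries gave differences of 4.32 to 5.49 points. The 100 most abundant rows held 4.82 points more (SE 1.15, exact permutation test, adjusted p = 0.00247), and the 1000 most abundant rows 2.01 points more (SE 0.774, exact permutation test, adjusted p = 0.0276). The last of these was not past the threshold without vehicle replicate 3 or 4, at 1.79 and 1.67 points (exact permutation test, adjusted p = 0.0607 and 0.0678).

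Single abundant rows did not move alike. The most abundant row had 40621 to 58468 TPM (median 47684) with vehicle and 43313 to 64266 TPM (median 49854) with NVS-HD1, and was not called, with a 95% interval of the log2 fold change from -0.097 to 0.23. At rank 5 there were 9382 to 24207 TPM (median 16091) with vehicle and 26672 to 34659 TPM (median 30781) with NVS-HD1. It was the only one of the 10 most abundant rows whose groups did not overlap, and its log2 fold change was 0.95 ± 0.12 (SE; limma, adjusted p = 1.05e-07). In 7 further rows of these 10 the log2 fold change was between 0.22 and 0.47 and was called. Rank 9 had a fold change of -0.14 (log2), with an interval from -0.32 to 0.037, and was not called. The 7 smaller rises depended on the scaling. The rows at ranks 2, 4, 6, 7 and 8 were not called after median-of-ratios scaling, and none of the 7 was called higher after quantile normalization. Under the latter rank 4 was called lower, with a log2 fold change of -0.19 (limma, adjusted p = 0.00109), as was rank 9, with -0.38 (limma, adjusted p = 1.42e-04). With the title number in the fit 1 of the 10 most abundant rows was called, rank 5, and within title number 28 none was (0 of 10).

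Expressed as the composition of the libraries, rows with a higher mean under NVS-HD1 gained 12.8% of all TPM from the rest. The gain was concentrated, with 50% of it in 15 rows, while 50% of the loss was spread over 110 rows. Of the 20 most abundant rows 18 gained and 2 lost, and these 18 made up 51.5% of the gain. Any 2 libraries from different groups differed in 9.06% to 19.6% of their TPM (median 14.5%). Within NVS-HD1 the figure was 4.05% to 11.0% (median 7.33%) and within vehicle 4.47% to 11.8% (median 7.21%), and the ranges overlapped.

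More rows were detected with NVS-HD1. At 1 TPM or more, 12024 to 12621 rows (median 12291) were present in vehicle libraries and 12346 to 12933 (median 12610) in NVS-HD1 libraries. The mean difference was 283.6 rows with an SE of 94.5 (exact permutation test, adjusted p = 0.0167), and the ranges overlapped. With a minimum of 5 TPM the difference was 232 rows and was not past the threshold (exact permutation test, adjusted p = 0.126). Within title number 28 no such difference was seen. NVS-HD1 replicate 4 had 12346 rows at 1 TPM or more, and the 4 vehicle libraries of that number had 12024 to 12621. Treatment and title number cannot be told apart in this measure.

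The libraries of the groups were about equally far from each other. The root mean square distance of a library from the mean of the others of its group was 0.244 to 0.409 on the log2 scale (median 0.268) with NVS-HD1 and 0.211 to 0.432 (median 0.284) with vehicle. The difference was 0.0078 with an SE of 0.035 (exact permutation test, adjusted p = 0.819). The most distant libraries were vehicle replicate 5 (0.432) and NVS-HD1 replicates 4 (0.409), 7 (0.404) and 9 (0.372). Without these 4, a choice made after their values were seen, 4801 rows were called, 1878 higher and 2923 lower.

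Each library was then placed between the means of the other libraries of both groups, with 0% at the vehicle mean and 100% at the NVS-HD1 mean. The axis is the difference itself, so these positions are a description. Vehicle libraries lay at -12.2% to 22.02% (median 10.7%) and NVS-HD1 libraries at 70.5% to 110.7% (median 99.02%). No library lay between 22.02% and 70.5%. The NVS-HD1 library nearest to vehicle was replicate 4, at 70.5%, followed by replicate 5 at 80.0%, and the vehicle library nearest to NVS-HD1 was replicate 5, at 22.02%. NVS-HD1 replicate 4 is also the only NVS-HD1 library with title number 28. The vehicle libraries of number 28 lay at 7.51% to 22.02%, and those of number 29 at -12.2%, -11.5% and 13.5%.

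**Figure D4:**
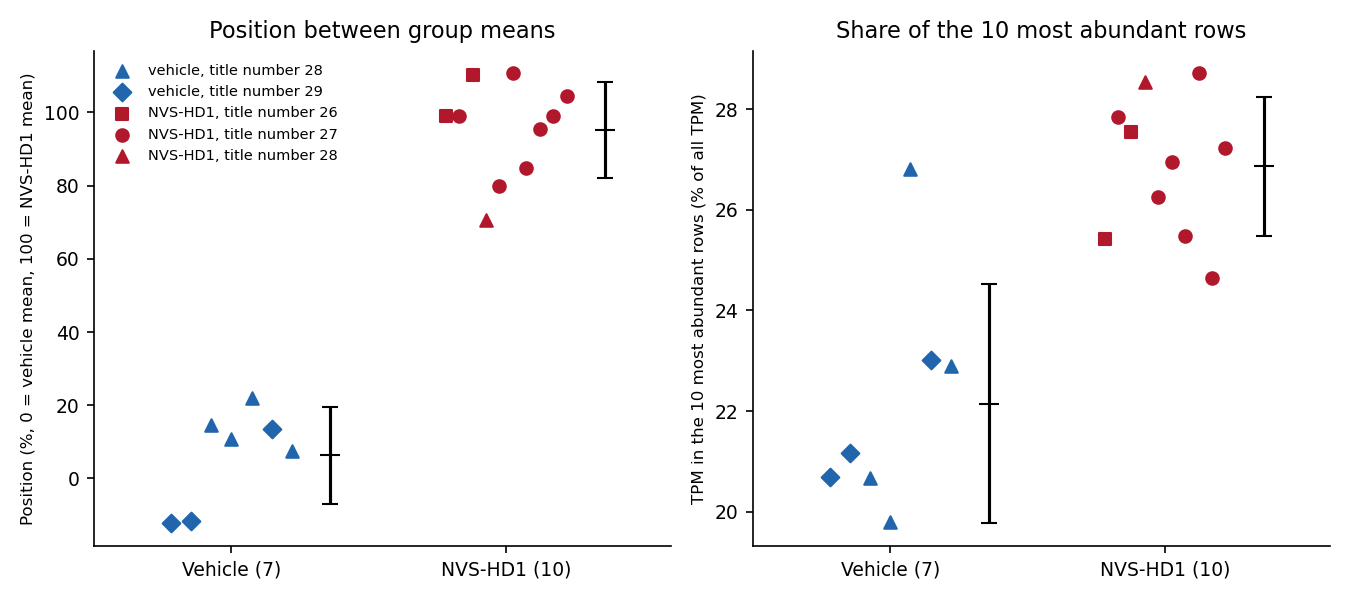
Left, the position of each library between the vehicle mean (0%) and the NVS-HD1 mean (100%), each computed without the library placed, and right, the percentage of TPM in the top 10 rows, with symbols for title numbers and the mean and SD of each group beside the points. Positions do not overlap, with vehicle up to 22.02% and NVS-HD1 from 70.5%, while the share of vehicle replicate 5, at 26.8%, falls among the NVS-HD1 libraries.

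The number in the titles nearly separated the groups. The vehicle libraries had number 28 (4 libraries) or 29 (3), and the NVS-HD1 libraries 26 (2), 27 (7) or 28 (1, replicate 4). Within NVS-HD1, number 27 against 26 gave 0 called rows in limma and 335 rows with an unadjusted p under 0.05. Within vehicle, number 29 against 28 gave 0 called rows and 390 at an unadjusted p under 0.05, where 655.4 of 13108 rows would be reached on average without any difference. With so few libraries, 0 calls do not show that the numbers were alike.

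Among the 17 libraries compared, number 28 is the only one with both treatments. It allowed a comparison of NVS-HD1 replicate 4 with 4 vehicle libraries, the lone library being assumed to vary like the other groups. Within this number limma called 500 rows, 181 higher and 319 lower, with a median SE of 0.25 against 0.11 for all 17 libraries. The 12 libraries of the other numbers, 9 NVS-HD1 and 3 vehicle, gave 4013 called rows, 1877 higher and 2136 lower, but here number and treatment cannot be told apart. The fold changes of the 2 comparisons have no vehicle or NVS-HD1 library in common. Both fits took their spread in part from the same libraries, so their calls are not independent. Of the 4013 rows, 3470 (86.5%) had the same sign within number 28, where 66.0% of all rows tested did. Called in the same direction were 464 rows, and in the opposite direction 1. Over the 4013 rows the median size of the fold change was 0.53 in the other numbers and 0.32, in that direction, within number 28. The rows were chosen for passing the threshold in the other numbers, which raises the first of these values, so the gap is not read as a smaller change. How much of the gap goes with that choice, with the title number or with NVS-HD1 replicate 4 was not tested.

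Rises and falls differed in this, and the median fold change of all rows was -0.13 within number 28 and 0.053 in the other numbers. That shift rests on 1 NVS-HD1 library within number 28, and its cause was not tested. The same sign was seen for 75.7% of the rows called higher and 96.0% of those called lower. Relative to the median of each comparison the shares were 85.5% and 85.1%, and 65.4% for all rows. Among 549 rows called with at least 2-fold changes in the other numbers, 516 (94.0%) had the same sign within number 28, and 203 were called there in the same direction and 1 in the opposite.

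**Figure D5:**
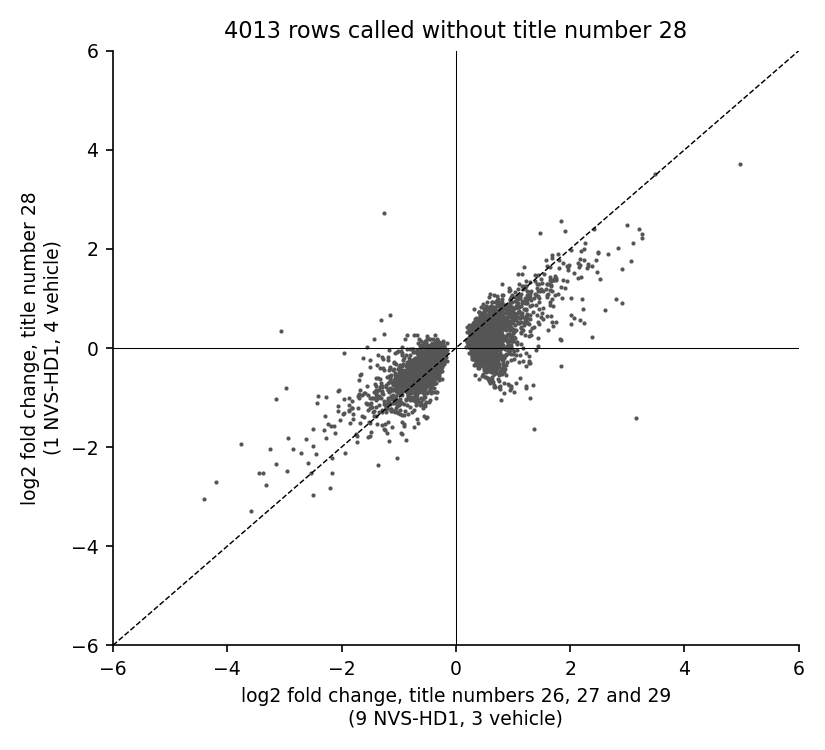
The 4013 rows called in the libraries of title numbers 26, 27 and 29 are plotted by their log2 fold change there and within title number 28, and the dashed line marks equal values. Of these rows 3470 (86.5%) lie in the quadrants of equal sign, with the points mostly nearer to 0 on the axis of number 28.

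The rows with the largest changes were followed through these comparisons, with the caution that they were chosen on all 17 libraries. All 10 rises and all 10 falls had the same sign within number 28 as in the other numbers, and 9 of the rises and 4 of the falls were called there. Rank 2750 had log2 fold changes of 3.71 within number 28 (limma, adjusted p = 0.00164) and 4.97 in the other numbers. Rank 392 had -3.28 (limma, adjusted p = 0.00206) and -3.59. Rank 411 had -1.93 with an SE of 1.23 within number 28 (limma, adjusted p = 0.370) and -3.77 in the other numbers. When title number was added to the fit of all libraries, 8 of the 10 rises and 5 of the 10 falls were called, as were all 6 rows with the smallest p.

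Rows at the other extreme held their level closely. Of rows averaging 100 TPM or more, the 3 whose 95% interval lay nearest to 0 were at ranks 46, 467 and 146. Rank 46 had 1640 to 1843 TPM (median 1723) with vehicle and 1638 to 1854 TPM (median 1733) with NVS-HD1, an interval of the log2 fold change from -0.078 to 0.086. Rank 467 had 230.7 to 255.9 TPM with vehicle and 230.5 to 253.5 TPM with NVS-HD1, and rank 146 had 648.5 to 709.3 and 639.2 to 703.3 TPM. The libraries overlapped almost fully in all 3. This holds for TPM as deposited: all 3 were called higher, by 0.12 to 0.14 on the log2 scale, when the 20 top rows were left out of the scaling (limma, adjusted p = 0.0161 to 0.0207).

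The 3 rows that varied most between NVS-HD1 libraries, of those averaging at least 10 TPM with NVS-HD1, were not called. Choosing rows for a large spread itself makes a call unlikely. At rank 6598, NVS-HD1 replicate 7 had 235.6 TPM and the other 9 libraries 3.98 to 9.70 TPM, about the level of the vehicle libraries, at 3.70 to 9.59 TPM. At rank 5546 the NVS-HD1 libraries ranged from 0.745 to 44.1 TPM (median 18.9) and the vehicle libraries from 1.12 to 34.6 TPM (median 6.42). At rank 1176 the ranges were 23.0 to 248.8 TPM (median 102.4) and 11.99 to 223.2 TPM (median 41.3). Of the 3, the wide spread of the first came from a single library, while the other 2 were spread widely in both groups.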

How the data were processed

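The authors deposited 1 table of TPM for 34 libraries of stranded, polyadenylated RNA. The aligner STAR 2.4.5a and the mm10 build are named, per the submitters' processing notes. Not given in the sources used here: how reads were counted, the annotation and any filter. Libraries were grouped by their titles and numbered in accession order, which pairs nothing.

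Values were analysed as log2(TPM + 1), which understates the change of rows with low TPM. All 4 groups entered 1 limma fit (limma 3.58.1, R 4.3.3) using empirical Bayes with a trend, two-sided tests and Benjamini-Hochberg adjustment over 13108 rows. The fit was also run on simulated data with independent noise and no effect of title number, so that run has no bearing on the title number. Measures of whole libraries were tested by exact permutation, two-sided, over 19448 assignments (Python 3.11.15).

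Rows described singly are the 10 largest rises and falls averaging 10 TPM or more in the higher group, the 10 most abundant, the 3 with the smallest adjusted p in each direction, the 3 of at least 100 TPM with the interval nearest 0, and the 3 of at least 10 TPM with the largest SD with NVS-HD1. The comparison, the row filter and these rules were chosen with earlier results of these data known. The comparison of libraries by title number 28 and the removal of 4 distant libraries were added after the values were seen. Alternatives covered pseudocounts, filters, scalings, weights, a rank test, the title number and leaving out each library. Gene symbols were not used, since they do not match the values, so no gene list was tested.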

Additional observations from a re-analysis of the deposited data

Results flagged for a closer look

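Single libraries that stood far from the others of their group were sought in 94 sets of values, 6 library measures and 41 rows in each group of 7 or 10 libraries, the rows on the log2(TPM + 1) scale. In independent sets not chosen by their values, chance would flag about 1 in 20, or 4.7, and 11 were found. The 41 rows were chosen from these same values, some for a large SD with NVS-HD1, and the library measures overlap. The excess is therefore not read as a result.

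Vehicle replicate 5 accounted for 3. The share of TPM in its top 100 rows was 48.9%, and in the other 6 it was 40.6% to 44.1%. The row at rank 2750, the largest rise with NVS-HD1, had 7.55 TPM in it against 0.448 to 2.02 TPM, and the row at rank 6443, among the largest falls, 18.4 TPM against 49.2 to 79.5 TPM. NVS-HD1 replicate 4 accounted for another 3, with 61.8 TPM at rank 819 (the others had 110.6 to 202.8), 140.9 TPM at rank 705 (185.7 to 244.1) and 585.2 TPM at rank 120 (312.5 to 424.5). Each of these 5 row values lay toward the other treatment group.

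NVS-HD1 replicate 7 had 31.9 TPM at rank 6443, where the others had 0.840 to 5.51 TPM, and 235.6 TPM at rank 6598, where they had 3.98 to 9.70 TPM. The remaining 3 were NVS-HD1 replicate 5 with 12.07 TPM at rank 4410 (25.6 to 45.3), vehicle replicate 2 with 1.31 TPM at rank 3727 (3.01 to 5.07) and vehicle replicate 6 with 426.3 TPM at rank 752 (576.3 to 715.4). The causes were not tested.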

How the results depend on the processing

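The 5198 rows called became 510 with the title number as a factor in the fit and 500 within number 28, and the 427 rows changed at least 2-fold became 216 and 222. In both, NVS-HD1 replicate 4 is the only link between the treatments, and the median SE rose from 0.11 to 0.25. A pseudocount of 5 TPM left 261 rows of at least 2-fold, since it shrinks the folds of low rows. Under 10 further limma settings 3661 to 6439 rows were called, and leaving out single libraries gave 4622 to 5285. An exact rank-sum test called 5218 rows, 4807 of them shared with limma.

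Rises made up 46.6% of called rows, and 36.3% among rows averaging 10 TPM or more, 36.2% within number 28 and 69.4% when the 20 top rows were left out of the scaling. Without single libraries, the difference in the share of the 1000 most abundant rows was 1.67 to 2.56 points, and rows detected at 5 TPM differed by 232.

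Quantile normalization turned the log2 fold changes of the rows at ranks 2, 4, 6 and 8 to -0.038, -0.19, -0.061 and -0.027, and gave 0.11 at rank 146. Leaving the 20 top rows out of the scaling gave 0.12 at rank 467 and 0.13 at rank 146. The causes were not tested. Depth is unknown, so counting error could not be set apart from other spread.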
